A study of Mus musculus with 2 samples.

Results

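The genes of the mouse major histocompatibility complex (MHC, named H2 in mice) were examined in 2 lists of H3K4me3 peaks from lung group 2 innate lymphoid cells (ILC2s, lymphocytes without antigen receptors that make type 2 cytokines). The members were all protein-coding genes of the GENCODE annotation whose symbol starts with H2-, together with Tap1, Tap2, Tapbp, B2m, Cd74 and Ciita, which made 40 of 22028 protein-coding genes. Of these, 24 were class I genes, 9 were class II genes, 6 were the added genes and 1, H2-Ke6, carries an H2- symbol but is not an MHC gene. A member was counted as marked where a peak lay within 1000 bp of any of its annotated transcript starts, and such a peak is called a start peak here. H3K4me3, trimethylation of lysine 4 of histone H3, was profiled by CATCH-seq, a ChIP-seq protocol for small numbers of cells in which native chromatin is cut with micrococcal nuclease. There was 1 library of about 3000 ILC2s from 8-week-old offspring of control mothers and 1 from offspring of asthmatic mothers. Their peaks are called the control list and the asthmatic list. The ChIP-seq methods name no sorting gate. The single-nucleus methods of the paper give CD45+, Lin-, ST2+ for adult lung ILC2s, and its reporting summary adds CD90+. The mothers were C57BL/6J females, 6 to 8 weeks old when sensitized, and were mated with untreated males after the second sensitization. Asthmatic mothers received 100 µg ovalbumin (OVA) in alum intraperitoneally on both sensitization days and 500 µg OVA intranasally at intervals between gestation days 4 and 17, and control mothers received alum and PBS at the same times. No allergen treatment of these offspring is named, and 1 pregnant dam stood for each group. No value has a replicate, so the groups were not tested against each other, and the group cannot be told apart from the dam or the library.

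MHC class I molecules are heavy chains that pair with beta-2 microglobulin (B2m) and show peptides from inside the cell to CD8+ T cells and natural killer cells. The peptides are pumped into the endoplasmic reticulum by the transporter Tap1-Tap2 and loaded with the help of tapasin (Tapbp). H2-K1 and H2-D1 encode the classical class I chains of this strain, and the H2-Q, H2-T and H2-M genes encode nonclassical ones, some of which are made in few tissues. Class II molecules show peptides taken up from outside to CD4+ T cells, and their genes are driven in dendritic cells, B cells and macrophages by the coactivator CIITA. Cd74 is the invariant chain that escorts class II molecules, and H2-DM and H2-DO exchange or control the exchange of their peptides. H3K4me3 marks the starts of genes that are active or ready for transcription, so a start peak is a state of chromatin and not a level of RNA or protein.

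Promoters of 8 members are shown first. RefSeq promoters on GRCm38.p6, each 250 bases before to 50 bases after a start, were matched for 34 of the 40 members. Tap2, H2-Ab1, H2-Q1, H2-T24, Ciita and Cd74 had no entry. Each line gives the 200 bases before the start, 5′ to 3′ on the strand of the gene, with matches to 4 motifs in capitals. The motifs, searched on both strands, were the kB site of the class I enhancer (GGGGATTCC), the interferon response element ISRE (GAANNGAAA, or its reverse complement), the Y box (GATTGG, or CCAATC on the other strand) and the X box (AGNNACAGA). H2-K1, H2-D1, H2-Q6 and H2-Q7 are shown because they hold the kB site and the ISRE together, H2-Q10 because its peak was listed in offspring of control mothers alone, B2m as the partner of all class I chains, and H2-Aa and H2-M10.1 as members without a start peak.
H2-K1, chr17:34000348-34000547, minus strand: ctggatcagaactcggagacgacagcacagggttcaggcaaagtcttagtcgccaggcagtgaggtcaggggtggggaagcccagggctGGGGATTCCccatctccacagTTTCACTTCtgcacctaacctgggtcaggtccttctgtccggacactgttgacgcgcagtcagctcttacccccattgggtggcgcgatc
H2-D1, chr17:35262894-35263093, plus strand: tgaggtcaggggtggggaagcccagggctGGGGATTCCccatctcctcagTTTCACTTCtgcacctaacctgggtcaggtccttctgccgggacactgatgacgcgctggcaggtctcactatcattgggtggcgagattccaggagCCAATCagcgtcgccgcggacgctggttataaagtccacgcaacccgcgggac
H2-Q6, chr17:35424650-35424849, plus strand: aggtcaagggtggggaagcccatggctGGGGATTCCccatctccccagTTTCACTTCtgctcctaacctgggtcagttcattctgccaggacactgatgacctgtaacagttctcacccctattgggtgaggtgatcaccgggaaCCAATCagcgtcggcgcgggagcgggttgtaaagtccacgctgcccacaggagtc
H2-Q7, chr17:35438955-35439154, plus strand: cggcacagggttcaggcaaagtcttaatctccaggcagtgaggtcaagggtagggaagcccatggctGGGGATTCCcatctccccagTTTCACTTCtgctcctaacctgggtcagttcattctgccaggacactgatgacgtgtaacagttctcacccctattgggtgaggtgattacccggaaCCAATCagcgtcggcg
H2-Q10, chr17:35469889-35470088, plus strand: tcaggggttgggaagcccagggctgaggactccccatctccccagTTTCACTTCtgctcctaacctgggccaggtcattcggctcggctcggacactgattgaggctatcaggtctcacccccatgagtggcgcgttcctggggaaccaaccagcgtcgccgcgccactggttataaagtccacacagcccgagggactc
B2m, chr2:122147487-122147686, plus strand: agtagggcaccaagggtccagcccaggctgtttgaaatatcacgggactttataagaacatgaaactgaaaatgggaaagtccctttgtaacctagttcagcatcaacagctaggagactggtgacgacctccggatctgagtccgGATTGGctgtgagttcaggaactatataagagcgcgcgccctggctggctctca
H2-Aa, chr17:34287824-34288023, minus strand: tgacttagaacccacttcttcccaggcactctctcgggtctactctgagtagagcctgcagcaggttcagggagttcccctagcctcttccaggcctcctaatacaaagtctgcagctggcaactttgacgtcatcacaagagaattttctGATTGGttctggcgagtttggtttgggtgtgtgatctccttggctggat
H2-M10.1, chr17:36326151-36326350, minus strand: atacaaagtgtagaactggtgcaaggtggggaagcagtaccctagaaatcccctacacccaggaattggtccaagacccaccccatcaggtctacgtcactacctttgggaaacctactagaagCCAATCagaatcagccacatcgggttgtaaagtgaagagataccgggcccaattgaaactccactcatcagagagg

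In offspring of control mothers 17 of 40 members (42.5%, exact Clopper-Pearson 95% interval 27.0 to 59.1%) had a start peak, beside 50.9% of all protein-coding genes. In offspring of asthmatic mothers 15 members (37.5%, 22.7 to 54.2%) had one, beside 41.9% of all protein-coding genes. Both intervals hold the share over all genes, and they cover counting error only. A start peak was listed in both libraries for 14 members, beside 41.2% of all genes, in the control list alone for 3, H2-DMa, H2-Eb1 and H2-Q10, beside 9.71%, and in the asthmatic list alone for 1, H2-Ke6, beside 0.722%. The remaining 22 members had none in either list. Class I genes had a start peak in 10 of 24 cases (41.7%, 22.1 to 63.4%) in the control list and in 9 of 24 (37.5%, 18.8 to 59.4%) in the asthmatic list, and these intervals too hold the share of all genes. Of the 12 class I genes outside the H2-M family, 9 (75%, 42.8 to 94.5%) and 8 (66.7%, 34.9 to 90.1%) had a start peak in the control and the asthmatic list. Of the 12 H2-M genes only H2-M3 had one, in each list (8.33%, 0.211 to 38.5%). Class II genes followed with 3 of 9 (33.3%, 7.49 to 70.1%) and 1 of 9 (11.1%, 0.281 to 48.2%), and of the added genes Tap1, Tap2, Tapbp and B2m had one in both lists while Ciita and Cd74 had one in neither. Among the 144 other protein-coding genes that lie between the outermost members on chromosome 17, 70 and 56 had a start peak. The 19 olfactory receptor genes among these neighbours had 0 in both lists.

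**Figure D1:**
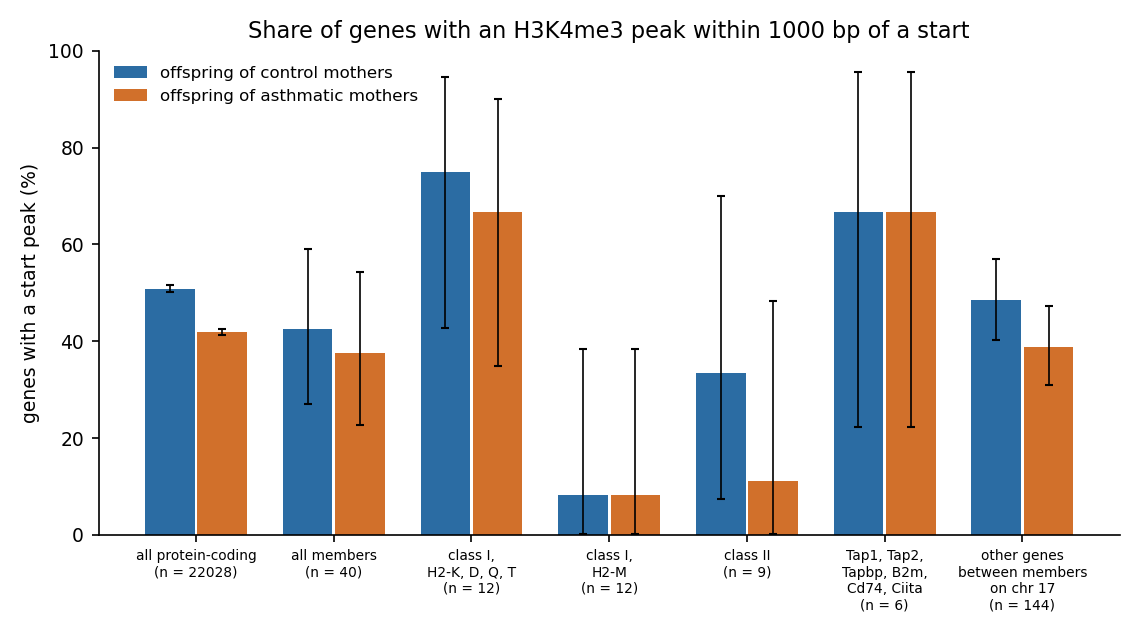
Share of genes with a start peak (%, y axis) for all protein-coding genes, the members and their families, and the other genes between the members on chromosome 17, in offspring of control mothers (blue) and asthmatic mothers (orange), with exact Clopper-Pearson 95% intervals. The class I genes outside H2-M stand at 75% and 66.7%, the H2-M genes at 8.33% in both lists and the class II genes at 33.3% and 11.1%.

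The strength of a peak is given below as its −log10 q and as the number of fragments at its summit. The fragments were solved from the deposited fold and −log10 p and are not the authors' values. Summit fragments depend on the depth and enrichment of each library and on the fragment length used in calling. The smallest peak, taken as that length, was 190 bp wide in the control list and 156 bp in the asthmatic list. The smallest background, solved in the same way, came to 96.1 and 100.4 fragments per 10 kb. A shorter length lowers the count at a summit and narrows a peak, and its part in the values below was not tested. The strongest start peak held fewer fragments in the asthmatic list for 97.2% of the 9068 protein-coding genes marked in both lists, and the median ratio of asthmatic to control was 0.613. A lower number in offspring of asthmatic mothers was therefore the rule across the genome, and ranks within a list are given beside it. The percentile of a gene is its rank by −log10 q among all protein-coding genes with a start peak in the same list, with the highest near 100.

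H2-K1 and H2-D1, the classical class I genes, were marked in both libraries. By −log10 q they ranked near the middle of the control list and lower in the asthmatic list. In the control list their fragments and widths lay above the medians of all genes, 26 fragments and 542 bp. In the asthmatic list both had 17 fragments beside a median of 16, and widest peaks of 264 and 692 bp beside 351 bp. H2-K1 (chr17:33996017-34000347, minus strand) had 34 summit fragments (95% Poisson interval 23.5 to 47.5) and a −log10 q of 14.03 in the control list. In offspring of asthmatic mothers it had 17 fragments (9.90 to 27.2) and a −log10 q of 5.97. Its percentile was 52.3 in the control list and 20.2 in the asthmatic list, and the ratio of fragments was 0.5. The single H2-K1 peak of the control list was 1273 bp wide, the widest start peak of any member, and lay from 95 to 1367 bp downstream of the 5′ end. The asthmatic list held 3 separate peaks of 261, 264 and 175 bp inside this stretch, which a joining of peaks up to 1000 bp apart made into a domain of 983 bp. H2-D1 (chr17:35262730-35267499, plus strand) had 36 fragments (25.2 to 49.8) and a −log10 q of 13.6 in the control list, and 17 fragments (9.90 to 27.2) and a −log10 q of 5.39 in the asthmatic list. Its peaks were 1136 and 692 bp wide, and its percentile was 49.0 in the control list and 17.1 in the asthmatic list. The H2-D1 peaks began 402 and 420 bp from the annotated 5′ end, but only 38 and 56 bp from the RefSeq start, which lies 364 bp further downstream. H2-K1 and H2-D1 were thus close to each other in fragments and rank in each list, and within each gene the lower values were those of the asthmatic list.

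The H2-Q genes held the strongest and the weakest class I peaks. H2-Q7 (Qa-2 family, chr17:35439155-35443773) had 57 fragments (43.2 to 73.9) and a −log10 q of 25.9 in the control list, against 35 fragments (24.4 to 48.7) and a −log10 q of 13.6 in the asthmatic list. H2-Q6 (chr17:35424850-35430055) had 55 fragments (41.4 to 71.6) and a −log10 q of 20.6, against 36 fragments (25.2 to 49.8) and 13.0. These were the highest summits of all members in each list, with percentiles of 97.6 and 92.3 for H2-Q7 and of 87.6 and 91.0 for H2-Q6. H2-Q4 (chr17:35379617-35385290) had 47 fragments (34.5 to 62.5) and a −log10 q of 26.8, the highest −log10 q of any member, in the control list. H2-Q4 had 23 fragments (14.6 to 34.5) and a −log10 q of 9.89 in the asthmatic list, and its percentile was 98.1 in the control and 71.2 in the asthmatic list. H2-Q2 (chr17:35342242-35346762) had the lowest −log10 q of any member in the asthmatic list. It had 23 fragments (14.6 to 34.5) and a −log10 q of 10.9 in the control list, and 2 peaks of 11 fragments (5.49 to 19.7) and a −log10 q of 3.41 in the asthmatic list, at percentile 1.35. H2-Q10 (chr17:35470089-35474563), known as a secreted class I chain of the liver, had a peak of 23 fragments (14.6 to 34.5), 413 bp and a −log10 q of 10.3 across its 5′ end in the control list. The asthmatic peak nearest to H2-Q10 lay 1059 bp from a start, just outside the limit. Of the 666 protein-coding genes whose strongest control peak had a −log10 q within 0.5 of that of H2-Q10, 23.7% (20.5 to 27.1%) likewise had no start peak in the asthmatic list. H2-Q1 had none in either list.

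H2-Q7 and H2-Q6 share long identical stretches with each other, which bears on their values. A stretch of 75 bases, the length of 1 read, was looked for elsewhere in the 21 assembled chromosomes. Of all such stretches within 1000 bp of a start, 54.4% for H2-Q7 and 45.5% for H2-Q6 occurred at another place, beside 6.55% for H2-K1, 3.09% for H2-D1 and 2.39% for H2-Q4. The partners of H2-Q7 were mostly H2-Q6 and the neighbouring H2-Q5, which the annotation calls a polymorphic pseudogene. The 75 bases around the H2-Q7 summit of the control list are shown because they stand at 3 places without a difference, chr17:35439310-35439384 in H2-Q7, chr17:35424966-35425040 in H2-Q6 and chr17:35394215-35394289 in H2-Q5.
H2-Q7 summit, control list, plus strand: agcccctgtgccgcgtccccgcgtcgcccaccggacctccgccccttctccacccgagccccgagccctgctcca
Single reads from these bases cannot be assigned to 1 of the 3 genes. The H2-Q6 summit stood at 2 places in the control list and at 3 in the asthmatic list, whereas the H2-Q7 summit of the asthmatic list was single. Of all protein-coding genes with a start peak, 2.97% in the control list and 4.38% in the asthmatic list had a summit with an exact copy elsewhere. Among members these were H2-Q6 and H2-Q7 in the control list and H2-Q6 in the asthmatic list. The number of H2-Q6 and H2-Q7 fragments is therefore uncertain. The mate of a read pair or its neighbouring bases may place some of them, and the handling of reads with several places is not given in the sources used here. With peaks at copied summits left out, 8 class I genes stayed marked in the control list, without H2-Q6 and H2-Q7, and 9 in the asthmatic list, beside 49.4% and 40.3% of all protein-coding genes. H2-Q6 stayed in the asthmatic list only through a weaker second peak of 187 bp, with 23 fragments and a −log10 q of 5.13.

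**Figure D2:**
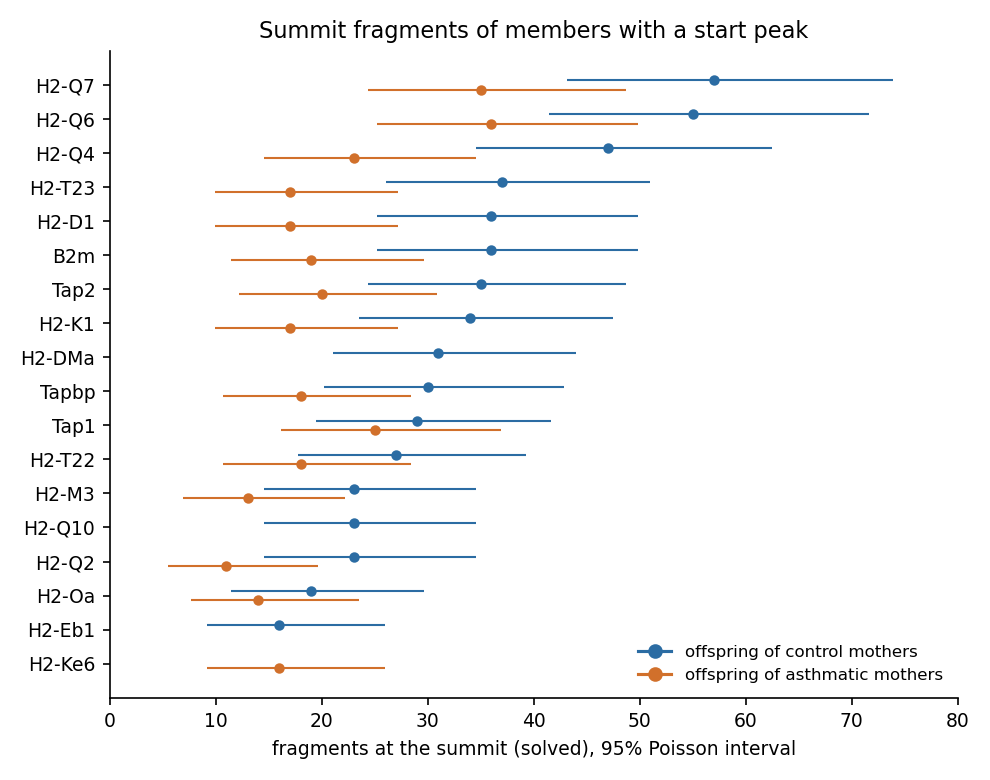
Fragments at the summit of the strongest start peak (x axis, solved from the deposited fold and −log10 p) for the 18 members with a start peak in either list, in offspring of control mothers (blue) and asthmatic mothers (orange), with 95% Poisson intervals that cover counting error only. H2-Q7 and H2-Q6 lead in both lists with 57 and 55 against 35 and 36 fragments, and all 14 members with both points have the lower one in offspring of asthmatic mothers.

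Of the H2-T genes, H2-T23 and H2-T22 were marked in both lists, and H2-T24 and H2-T3 in neither. H2-T23 encodes Qa-1, the ligand of the CD94-NKG2 receptors of natural killer cells. It had 37 fragments (26.1 to 51.0) and a −log10 q of 23.4 in the control list and 17 fragments (9.90 to 27.2) and 8.39 in the asthmatic list. Its ratio of 0.459 was the lowest of the 14 members marked in both lists, and its percentile went from 94.6 to 53.0. Of its 75-base stretches 29.3% had a copy, mostly at BC023719, but both summits were single. H2-T22, a ligand of some gamma-delta T cell receptors, had 27 fragments (17.8 to 39.3) and a −log10 q of 13.7 in the control list and 18 (10.7 to 28.4) and 9.56 in the asthmatic list. Its strongest peaks lay upstream of the 5′ end, with summits at −377 and −388 bp, and within 1000 bp of a start of Gm6034. H2-M3, which presents formylated peptides of bacteria, was the marked exception of its family with 23 fragments (14.6 to 34.5) and a −log10 q of 12.7 in the control list and 13 fragments (6.92 to 22.2) and 6.00 in the asthmatic list. The other 11 H2-M genes, among them the H2-M10 genes, known from vomeronasal neurons, had no start peak in either list. Within 5000 bp of their starts only H2-M2 (4762 and 4674 bp) and H2-M10.1 (2837 bp, asthmatic list) had any listed peak.

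B2m and the peptide loading genes had start peaks in both lists. B2m (chr2:122147686-122153083) had 36 fragments (25.2 to 49.8), a −log10 q of 18.4 and a width of 1054 bp in the control list. B2m in the asthmatic list had 19 fragments (11.4 to 29.7), a −log10 q of 10.4 and a widest peak of 382 bp, while its percentile was 79.7 in the control and 73.8 in the asthmatic list. Tap2 had 35 fragments (24.4 to 48.7) and a −log10 q of 19.1 against 20 fragments (12.2 to 30.9) and 9.67. Tapbp had 30 fragments (20.2 to 42.8) and a −log10 q of 12.7 against 18 fragments (10.7 to 28.4) and 6.87. Both Tapbp peaks lay at starts inside the annotated gene, beginning 4311 and 3861 bp from its 5′ end. Tap1 was the member closest to equality, with 29 fragments (19.4 to 41.6) and a −log10 q of 10.8 against 25 fragments (16.2 to 36.9) and 11.3. Its percentile was 30.2 in the control and 81.2 in the asthmatic list, the largest shift of any member marked in both. Tap1 shares these peaks with Psmb9, a subunit of the immunoproteasome whose start lies head to head with it, so the peaks belong to both genes. The strongest peaks of the lists were also different ones, upstream of the Tap1 5′ end in the control list and downstream in the asthmatic list.

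Class II genes had start peaks in 3 and 1 of 9 cases, and both intervals given above hold the share of all genes, 50.9% and 41.9%. H2-Aa and H2-Ab1, which encode the chains of the class II molecule I-A, and H2-Eb1, whose alpha chain partner is listed as the pseudogene H2-Ea-ps, had none at their 5′ ends in either list, nor had H2-Eb2, H2-Ob, H2-DMb1 and H2-DMb2. The nearest listed peak lay 21849 and 55026 bp from the starts of H2-Aa and 27893 and 24938 bp from those of H2-Ab1 in the control and the asthmatic list. H2-Oa, a chain of H2-DO, was the only class II gene marked in both lists, with 19 fragments (11.4 to 29.7), a width of 348 bp and a −log10 q of 10.7 in the control list. The H2-Oa peak of the asthmatic list had 14 fragments (7.65 to 23.5), 250 bp and a −log10 q of 6.86. The H2-DMa peak of the control list, with 31 fragments (21.1 to 44.0) and a −log10 q of 5.46, lay 491 bp upstream of the 5′ end of an H2-DMa transcript that is not protein-coding and also within 1000 bp of a start of Brd2, a bromodomain gene. The H2-Eb1 peak of the control list, with 16 fragments (9.15 to 26.0) and a −log10 q of 7.94, lay 3805 to 4171 bp inside the gene, beside the start of a transcript that is not protein-coding. Counted at starts of protein-coding transcripts alone, H2-Oa was the 1 class II gene with a start peak in each list. Among genes with a control peak as strong as that of H2-DMa, 69.8% of 325 (64.5 to 74.8%) had no start peak in the asthmatic list, and for H2-Eb1 the share was 47.3% of 467 (42.7 to 52.0%). Both absences are hence frequent at this strength. Ciita, the class II coactivator, had its nearest peak 52786 bp away in the control list, at Dexi, and 2180 bp away in the asthmatic list. Cd74 had its nearest peaks 28401 and 13495 bp away.

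**Figure D3:**
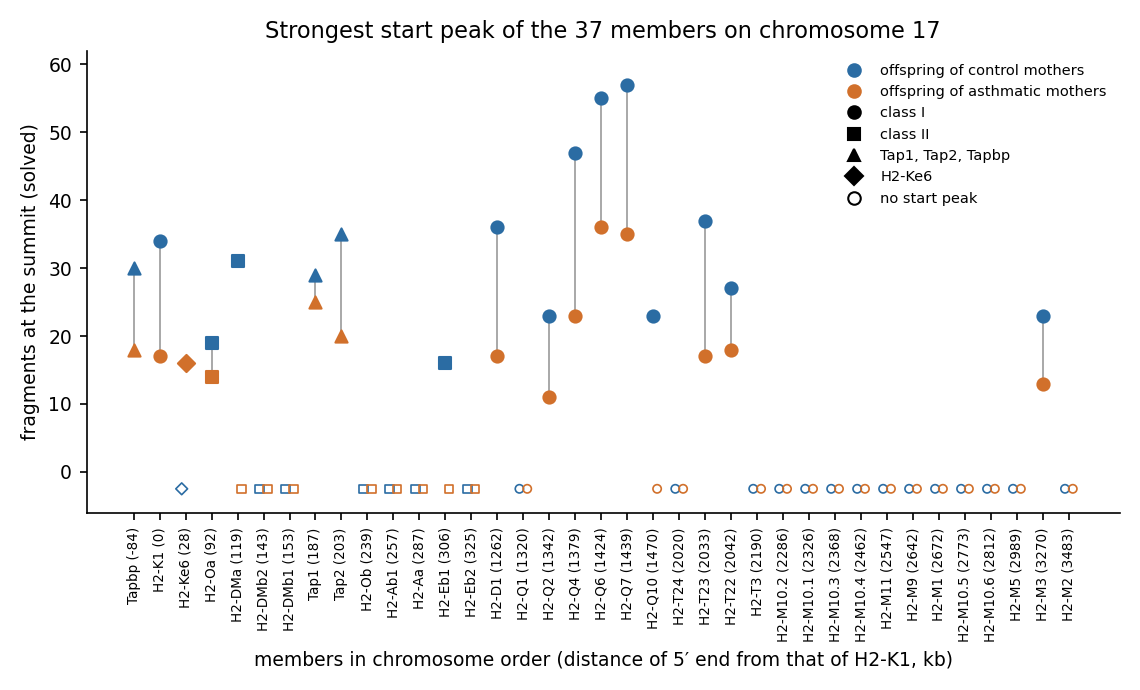
Fragments at the summit of the strongest start peak (y axis) of the 37 members on chromosome 17 in their order along the chromosome (x axis, distance of each 5′ end from that of H2-K1 in kb), in offspring of control mothers (blue) and asthmatic mothers (orange). Circles are class I genes, squares class II genes, triangles Tap1, Tap2 and Tapbp, the diamond H2-Ke6, and open symbols below 0 stand for no start peak. Most filled circles lie between H2-D1 and H2-T22, and the H2-M genes are open apart from H2-M3.

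The 1 member marked in the asthmatic list alone was H2-Ke6 (Hsd17b8), a steroid dehydrogenase gene beside H2-K1. Its peak had 16 fragments (9.15 to 26.0), 274 bp and a −log10 q of 3.78, at percentile 3.87. The nearest control peak lay 1673 bp away, at Ring1. Of 360 genes with an asthmatic peak of like strength, 6.67% (4.32 to 9.76%) had no start peak in the control list.

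For each of the 14 members marked in both lists start peaks of the lists overlapped, and all 14 had fewer summit fragments and a narrower widest peak in offspring of asthmatic mothers. This is close to the genome as a whole, where 97.2% of genes marked in both lists had fewer fragments and 93.3% a narrower widest peak. The median ratio of fragments, asthmatic to control, was 0.568 for the members, 0.5 for the 9 class I genes, 0.586 for Tap1, Tap2, Tapbp and B2m, and 0.613 for all genes. The class I ratios ran from 0.459 for H2-T23 to 0.667 for H2-T22, and those of H2-T22, H2-Q6 and H2-Q7 lay above the median of all genes. The percentile was lower in the asthmatic list for 10 of the 14 members and 7 of the 9 class I genes, beside 58.2% of all genes marked in both lists. The median shift was −27.0 percentiles for class I and −4.97 for all genes. With 1 library per group these differences have no replicate check, and nothing particular to class I can be read from them.

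The widths of start peaks were compared next. In the control list the median widest start peak was 783.5 bp for the 10 marked class I genes (95% order-statistic interval 413 to 1261 bp), 826 bp for Tap1, Tap2, Tapbp and B2m, and 542 bp for all genes with a start peak. These medians were 636 (268 to 774), 388.5 and 351 bp in the asthmatic list. Both class I intervals hold the median of all genes, and the widest peaks of H2-T22 (400 bp) and H2-Q10 (413 bp) in the control list lay below it. The median of summit fragments was 35 for class I against 26 for all genes in the control list, and 17 against 16 in the asthmatic list. The rank of class I among all genes depended on the measure. Its median percentile in the control and the asthmatic list was 51.2 and 53.0 by −log10 q, 91.1 and 55.3 by summit fragments, and 81.5 and 91.9 by width.

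**Figure D4:**
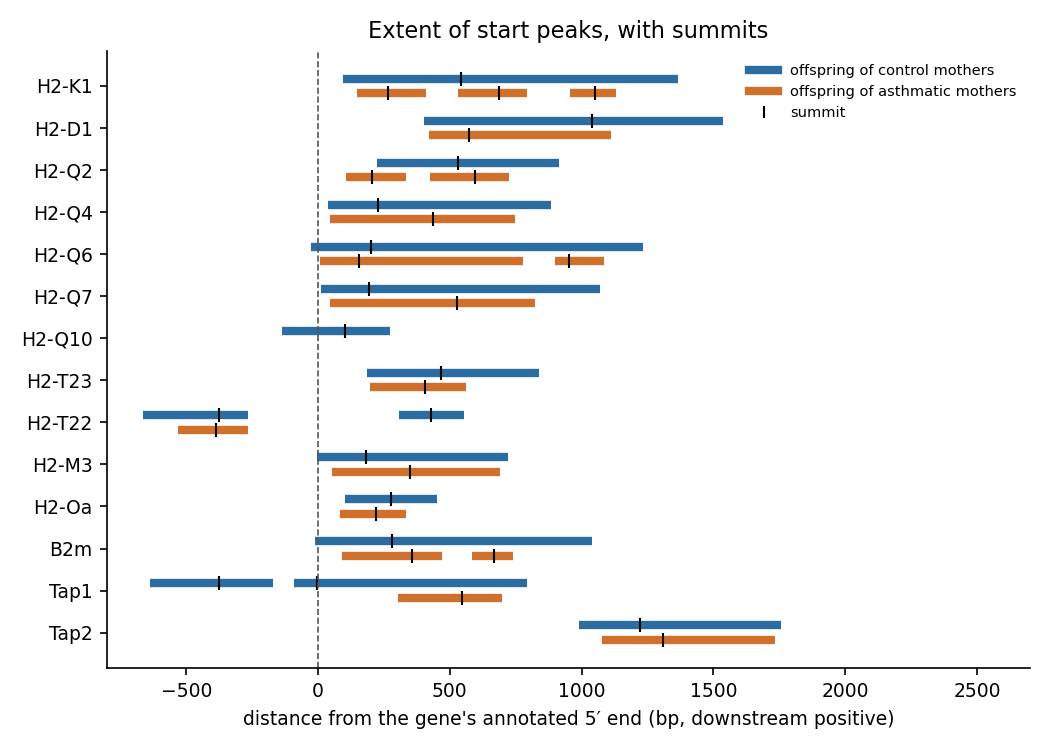
Extent of every start peak (bars) and its summit (ticks) from the annotated 5′ end of the gene (x axis, bp, downstream positive) for 14 members, in offspring of control mothers (blue) and asthmatic mothers (orange). Most bars begin close to the 5′ end and run downstream. The widest bar of each gene is a control one, though the second H2-T22 control bar (246 bp) is narrower than the asthmatic bar (268 bp). H2-K1 is 1 bar of 1273 bp in the control list but 3 separate bars in the asthmatic list.

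Promoter sequence, which the choice of members did not use, was compared between marked and unmarked class I genes. The kB letters are those of the class I enhancer, and the motifs were chosen with earlier results of these data known. The motif counts therefore describe the promoters and are no independent check. A longer kB form, ggggatttcc in H2-Q4, was not counted. The kB site was found in 4 of the 10 class I promoters with a start peak in the control list, H2-K1, H2-D1, H2-Q6 and H2-Q7, and in 0 of the 12 without one, beside 0.25% of all 32851 RefSeq promoters. Of the 12 unmarked promoters 11 are those of H2-M genes, and 9 of the 10 marked ones are not, so marking cannot be told apart from gene family here or in the CG content below. The ISRE was found in 7 of 10 and 1 of 12, beside 7.52% of all promoters. The kB site and the ISRE together occurred in 10 of all promoters (0.0304%), and 5 of those 10 belonged to these 4 genes, H2-K1 having 2 entries. The first base of the ISRE followed that of the kB site by 21 bases in H2-K1, H2-D1 and H2-Q6 and by 20 bases in H2-Q7. These promoters are related copies, the ungapped identity being 76.6% between H2-Q6 and H2-Q7 and 75.8% between H2-D1 and H2-Q6, so they are not independent examples. The unmarked promoters are related too, with 92.5% between H2-M1 and H2-M9 and 82.1% between H2-M10.3 and H2-M10.6, so the counts and the CG content of both sides rest partly on copies. The Y box did not separate the groups, with 7 of 10 against 9 of 12 class I promoters and 7 of 8 class II promoters, beside 16.1% of all promoters. The X box in the form searched was found in 2 of 8 class II promoters, H2-Oa and H2-Eb2, beside 8.48% of all. In H2-Eb2 the match lay 25 bases after the start. Variant letters were not counted, such as agcaactga upstream of the Y box in H2-Eb1 and H2-Eb2, so the number of class II X boxes is not known from this count. A match of letters is not a bound site, and a missing match says only that these letters are not in this window.

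Content of CG dinucleotides was counted in the same promoters. Marked class I promoters held a median of 10 CG per 300 bases (range 4 to 19), unmarked ones 2 (0 to 5), class II promoters 3 (0 to 29), and those of Tap1, Tapbp and B2m 14 (11 to 15), beside a median of 7 over all promoters. The 29 belonged to the H2-DMa entry, which lies 3291 bp inside the annotated gene. H2-D1 and H2-Q10 had 19 each, H2-Q2 had 4 and H2-T23 had 5. The link between CG content and H3K4me3 is well known across the genome, and its part in these values was not tested.

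**Figure D5:**
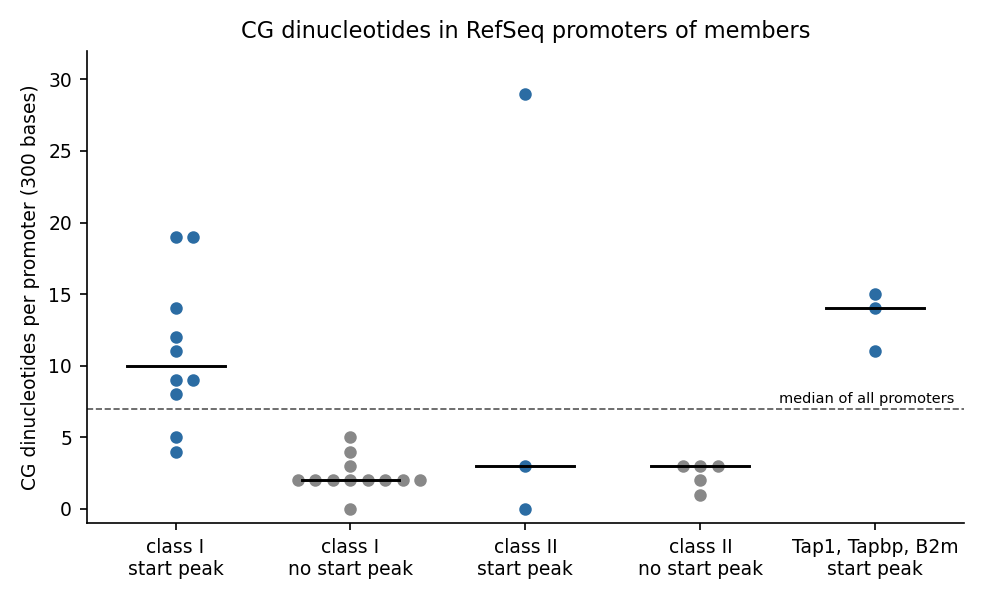
CG dinucleotides in the 300-base RefSeq promoter of each matched member except H2-Ke6 (points, y axis), by class and by start peak in offspring of control mothers. The group median (bar) and the median of all promoters, 7 (dashed line), are drawn. A start peak is counted by gene, and the promoters of H2-DMa and H2-Eb1 lie 3782 and 3805 bp from the control peak of their gene. Class I promoters with a start peak lie between 4 and 19 and those without between 0 and 5.

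Of a wider list of 30 genes of antigen presentation found in the annotation, 23 (76.7%, 57.7 to 90.1%) had a start peak in each list, beside 50.9% and 41.9% of all protein-coding genes. Nlrc5, the class I coactivator, had 20 fragments and a −log10 q of 11.7 in the control list and 13 fragments and 6.00 in the asthmatic list. The subunits of the RFX factor, which binds the X box, were marked in both lists. Rfx5 had 29 and 21 fragments, Rfxap 28 and 15, and Rfxank 24 and 11. The immunoproteasome genes Psmb8 with 30 and 18 fragments and Psmb10 with 31 and 17, and the peptide trimming enzyme Erap1 with 44 and 21, were marked in both as well. Cd1d1, which presents lipids, had a peak in the control list alone (23 fragments) and Mr1, which presents vitamin B metabolites, in the asthmatic list alone (10 fragments). None was listed for the class II protease Ctss, the class II ubiquitin ligase March1, Fcgrt, Cd80, Cd86 or Cd40.

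The markers of other cells that carry class II were looked at because a few such cells would matter for the class II values. Of all protein-coding genes, 50.9% had a start peak in the control list and 41.9% in the asthmatic list, and the counts below stand beside these shares. None of the 7 B cell markers and none of the 9 macrophage markers had a start peak in either list. Of the 8 dendritic cell markers Zbtb46 alone had one, with 22 and 12 fragments. None of 6 T cell markers had one, and of 6 epithelial markers Epcam and Cdh1 had one in the control list and Sftpb in the asthmatic list. Of 12 ILC2 markers 9 (75%, 42.8 to 94.5%) had a start peak in the control list and 6 (50%, 21.1 to 78.9%) in the asthmatic list. Both intervals hold the share of all genes. Of the ILC2 markers Il1rl1, which encodes the sorting marker ST2, had 33 and 19 fragments. Gata3, Il7r and Il5 were marked in the control list alone, and Klrg1, Icos and Il13 in neither. The part of other cells in the values of the members was not tested.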

How the data were processed

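H3K4me3 peak lists of 2 libraries, 1 per group, were used. The authors trimmed paired reads with Trim Galore and Cutadapt, aligned them to GRCm38 (mm10) with Bowtie 2 and removed duplicates. According to the reporting summary, peak calling was not performed for the ChIP-seq, yet a peak list per library was deposited. Their caller, its threshold and the use of the input are not given in the sources used here. The deposited score is 10 times the −log10 q, rounded down. The deposited fold is a ratio of summit signal to background, and each peak also has a deposited −log10 of its p-value and of its q-value. These values are not scaled between the lists, and total read numbers were not used here. The smallest −log10 q was 2.02 in the control list (42126 peaks) and 2.01 in the asthmatic list (51610 peaks).

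Positions are on GRCm38, counted from 1, and starts came from GENCODE M21. The strongest start peak of a gene is that of highest −log10 q. Fragments at a summit were solved from fold and −log10 p under a Poisson model, with 1 added to signal and background in the fold, assuming that no input was used. A whole number was found for 99.99% of peaks in each list, within 0.001 of −log10 p. Exact copies of 75-base stretches were counted on both strands. Shares have exact Clopper-Pearson 95% intervals, fragments Poisson intervals and medians order-statistic intervals, all for counting error only. The start search, the solved fragments and the copy counts were tested on simulated data. The members, gene lists, markers and motifs were chosen with earlier results of these data known. Values are given for H2-K1, H2-D1, class II genes, the 6 added genes and other members with a start peak. Ifi30 of the wider list was not found as a protein-coding gene. Scripts ran under Python 3.11.15 (scipy 1.17.1, pandas 2.3.3, numpy 2.4.6), and figures under matplotlib 3.10.9.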

Additional observations from a re-analysis of the deposited data

Results flagged for a closer look

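Start peaks were also listed at H2- genes outside the protein-coding class, which were no members. Of 11 such genes 6 had one in the control list and 5 in the asthmatic list, beside 50.9% and 41.9% of all protein-coding genes, and H2-Pa, H2-Pb, H2-Ea-ps, H2-M10.5-ps1 and H2-M6-ps had none in either list. The −log10 q of the strongest was, in the control list and then the asthmatic list, 10.1 and 4.51 at H2-K2, 20.0 and 16.1 at H2-Q5, 10.9 and 6.86 at H2-Bl, 9.02 and 5.01 at H2-T-ps, and 9.81 and 5.99 at H2-T10. H2-Q3 had one of 4.80 in the control list alone. H2-Q5, between H2-Q4 and H2-Q6, had 46 summit fragments in the control list. Of the 75-base stretches near its starts 41.6% had an exact copy elsewhere, mostly at H2-Q6 and H2-Q7, and the share was 34.04% for H2-T-ps, 11.3% for H2-T10, 5.30% for H2-Bl, 2.23% for H2-Q3 and 0.356% for H2-K2. The part of these copies in the peaks was not tested.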

How the results depend on the processing

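No paired analysis was possible because each group had 1 library, and no library could be left out. The numbers of marked genes, the median width (723 bp in the control and 382 bp in the asthmatic list) and the median percentile (49.0 and 53.0) of members were recomputed, each list apart. Of 86 values, 76 stayed within 1.5 times the count or inside the interval of the median, and 10 did not. With the 10000 peaks of highest −log10 p, marked members fell to 11 in the control list and 3 in the asthmatic list (all protein-coding genes 32.2% and 9.32%), marked class II genes to 0 in both, and class I genes and the added genes to 2 and 1 in the asthmatic list, where the median width of the 3 members left was 774 bp. Starts of protein-coding transcripts alone left 1 class II gene in the control list (all genes 50.1%), and gene 5′ ends alone left 2 added genes in the asthmatic list, B2m and Tap1 (all genes 38.3%). Ranked by fold, the median percentile in the control list was 29.4. Chosen after seeing the data, ranks over genes marked in both lists gave medians of 42.4 and 58.8. Without replicates, neither a gain nor a loss of a peak can be separated from other differences between the libraries.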

Other observations

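Il1rl1, the gene of the sorting marker ST2, had 33 summit fragments in the control list, and Id2, a regulator of innate lymphoid cells, had 42, beside 34 at H2-K1, 36 at H2-D1 and 36 at B2m. In the asthmatic list these were 19, 21, 17, 17 and 19.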
